A study of Mus musculus with 12 samples.

Results

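The collagen genes of cultured neural stem and progenitor cells (NPCs) are described here. Members were the rows of the count table whose symbol has the form Col, a number, the letter a and a number, that is, 1 row for each collagen α chain. The rule found 44 of 24108 listed genes, and 29 of them passed the filter on low counts, among 13745 genes that did. RNA was sequenced from 12 libraries of subventricular zone (SVZ) NPCs of C57BL/6 mouse pups at postnatal days 9 to 12, in 4 groups of 3 libraries. Cells of each genotype, p53+/+ and p53-/-, were grown either alone, on laminin, or in co-culture. Co-culture lasted 48 h, on a monolayer of primary brain microvascular endothelial cells (bmvECs), from which the NPCs were lifted by selective trypsinization. The study made p53-/- NPCs by recombining p53 LoxP/LoxP alleles in culture with an adenovirus in which a CMV promoter drives iCre, so that p53 was lost in cultured cells and not in the animal. An adenovirus without insert was its control. The labels call the p53+/+ NPCs wild type, and the sources used here do not settle whether the sequenced ones carried the LoxP alleles and received the control virus, so effects of these and of p53 loss cannot be told apart. Libraries are named by experiment, 17_9, 25_9 or 1_10, and values are given in that order. Levels are in CPM, the reads of a gene per 1000000 reads of the tested genes, after TMM scaling. A gene was called where the p-value of edgeR's quasi-likelihood test, adjusted by Benjamini-Hochberg over all tested genes, was under 0.05.

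Collagens are trimers of α chains wound in a triple helix, and which chains can meet in a trimer is set by their type. Fibrillar types (I, II, III, V, XI, XXIV and XXVII) form fibers. Type IV forms the sheet of basement membranes, FACIT types decorate fibrils, and type XVIII carries heparan sulfate chains and releases endostatin. In the SVZ, stem cells contact the basement membranes of vessels and the branched matrix called fractones, both of which hold type IV collagen and laminin.

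Some facts of the libraries touch what follows. Total counts ranged from 16509710 to 22245224. Trp53 was at 61.8 to 109 CPM in the p53+/+ libraries and 11.7 to 19.3 CPM in the p53-/- libraries, and its target Cdkn1a at 350 or more CPM in the former and at 31.2 CPM or less in the latter, so no library went against its label. Co-cultured libraries held endothelial RNA. Of 24 endothelial markers, 20 were tested, and 19 of these rose in p53+/+ and 18 in p53-/- co-culture, where 21.2% and 18.8% of all tested genes rose. A marker near 0 alone could pass the filter only through the co-cultured groups, so these counts favor a rise. The summed level of all 24, tested or not, was 44.3 to 52.7 CPM in p53+/+ NPCs alone and 170 to 263 CPM in co-culture. In p53-/- NPCs it was 40.2 to 50.5 CPM alone against 159 to 196 CPM in co-culture. Cdh5, the cadherin of endothelial junctions, averaged 0.0331 CPM alone and 28.5 CPM in p53+/+ co-culture. In bulk RNA, fewer cells of a type and less RNA per cell cannot be told apart. Both libraries of experiment 17_9 cultured alone stood apart. Their summed level of 16 mural and contractile markers was 847 CPM (p53+/+) and 1304 CPM (p53-/-), against 185 to 324 CPM in the other 10 libraries. Among these markers Higd1b had no counts anywhere. The 20 fibroblast and meningeal markers summed to 238 to 458 CPM over the libraries, highest in the same pair (392 CPM in p53+/+ and 458 CPM in p53-/-), while Dcn and Lum of that list averaged at most 0.134 CPM in any group. Where leaving out both of these libraries ended the call of a collagen gene, its value without them is given. That fit tested 31 collagen genes and called 13 higher in p53+/+ co-culture, and not every gene newly called there is named.

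Collagen RNA was a small part of the NPC transcriptome. It took 0.164% ± 0.0197 (SD, n = 3) of all counts in p53+/+ NPCs alone and 0.195% ± 0.00531 in p53+/+ co-culture. Without p53 its share was 0.119% ± 0.0140 alone and 0.161% ± 0.0174 in co-culture. Levels of different chains were compared only per length, as CPM per kb of annotated exon. On this scale basement membrane chains led in p53+/+ NPCs alone: Col4a5 at 57.9 ± 7.46 (SD, n = 3) and Col18a1 at 42.3 ± 5.61 CPM per kb. Col4a6 followed at 28.9 ± 6.26 CPM per kb. The next levels, of the fibrillar chains Col5a2 (16.9 ± 4.73), Col11a1 (14.4 ± 1.90) and Col5a1 (12.6 ± 3.00 CPM per kb), lay within each other's spread. Col4a1 and Col4a2, the chains of the most widespread type IV trimer, reached 4.70 ± 0.653 and 1.52 ± 0.103 CPM per kb. Col1a1 and Col1a2, the chains of the main collagen of skin and bone, were at 0.202 ± 0.0652 and 0.0252 ± 0.00963 CPM per kb.

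The 15 genes that did not pass the filter had at most 28 counts in any library. They were the fibrillar Col2a1, Col3a1 and Col24a1, the basement membrane chain Col4a3, the type VI chains Col6a3, Col6a4, Col6a5 and Col6a6, and the hypertrophic cartilage collagen Col10a1. The others were the FACIT chains Col14a1 and Col19a1, the transmembrane Col13a1 and Col17a1, the vascular basement membrane chain Col15a1 and Col28a1. The highest of them in any library, Col3a1, had 28 counts, and Col15a1 had at most 20. They were not tested in this fit.

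Co-culture with bmvECs was compared with NPCs alone in each genotype. In p53+/+ NPCs 14 of the 29 tested collagen genes rose and 3 fell, where 21.2% of all tested genes rose and 18.3% fell. In p53-/- NPCs 11 rose and 1 fell, where 18.8% and 17.0% of all genes did. The median log2 fold change of the 29 was 0.55 in p53+/+ and 0.48 in p53-/-, against 0.00 and -0.01 over all tested genes. With the experiment number as a replicate block, which called 26.2% of all genes higher and 24.1% lower in p53+/+ NPCs, 15 collagens rose and 3 fell there. In p53-/- NPCs the block gave 15 that rose and 2 that fell, against 24.3% and 23.2% of all genes. Without the block, Col4a1, Col4a2, Col4a5, Col4a6, Col5a3, Col6a1, Col9a2, Col9a3, Col11a2, Col26a1 and the transmembrane Col23a1 rose in both genotypes. Col6a2, Col16a1 and Col27a1 were called higher in p53+/+ NPCs only. Col18a1 fell in both genotypes, and Col12a1 and Col5a1 were called lower in p53+/+ NPCs only.

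**Figure D1:**
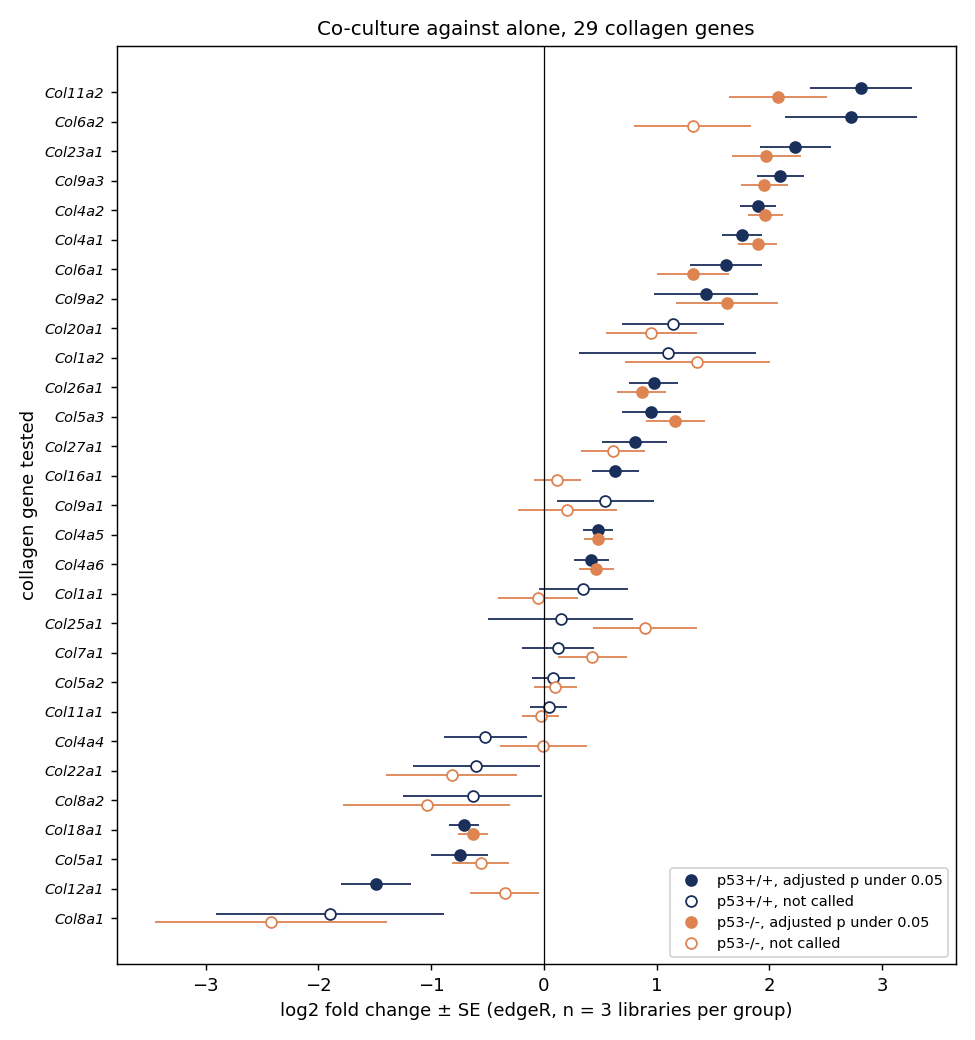
Log2 fold change (x axis, with its SE from edgeR) of each of the 29 tested collagen genes (y axis) in co-culture against alone, in p53+/+ (dark blue) and p53-/- NPCs (orange), 3 libraries per group. Filled points are called. Col11a2, Col23a1, Col9a3, Col4a2 and Col4a1 lie to the right in both genotypes and Col18a1 to the left, while Col8a1 has the longest error bars.

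Among type IV chains, Col4a1 moved with Col4a2 and Col4a5 with Col4a6 in co-culture, and the former pair rose more. Col4a1 and Col4a2 encode the chains of the trimer found in nearly all basement membranes, and lie head to head on opposite strands of chromosome 8. In RefSeq the Col4a2 start lies 21 bases inside Col4a1, so that the first exons share chr8:11312805-11312826 (GRCm38.p6, plus strand printed). The stretch is shown because a single short sequence carries both starts, with a GC box (GGGCGG) in capitals.
Col4a1 and Col4a2: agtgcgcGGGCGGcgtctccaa
Col4a5 and Col4a6, the chains of a second trimer, are also head to head, on the X chromosome, with starts 1343 bases apart and no overlap. The bases before each start are printed 5′ to 3′ on the gene's own strand, with a GC box or a CCAAT box, read on either strand, in capitals. They lay at chrX:141474077-141474326 (minus strand) for Col4a6 and chrX:141475169-141475384 (plus strand, ending 34 bases before the RefSeq start) for Col4a5. Col4a5 also had a GC box before its start, in the 34 bases that are not printed because an exon is annotated there.
Col4a6: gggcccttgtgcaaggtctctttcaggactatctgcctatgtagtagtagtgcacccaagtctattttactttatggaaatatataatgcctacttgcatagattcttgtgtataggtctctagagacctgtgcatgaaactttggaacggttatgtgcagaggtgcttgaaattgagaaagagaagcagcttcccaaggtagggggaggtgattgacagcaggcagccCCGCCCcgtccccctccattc
Col4a5: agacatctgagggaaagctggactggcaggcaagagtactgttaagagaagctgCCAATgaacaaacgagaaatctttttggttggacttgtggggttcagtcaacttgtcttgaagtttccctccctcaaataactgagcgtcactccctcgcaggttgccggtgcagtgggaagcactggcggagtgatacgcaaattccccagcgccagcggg
The count table was made on another genome build (mm9), so these positions describe the genes and not the reads.

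Col4a1 was at 40.7, 31.6 and 33.0 CPM in p53+/+ NPCs alone and at 121, 129 and 106 CPM in co-culture. The p53-/- libraries held 40.7, 37.5 and 27.7 CPM alone and at 156, 129 and 110 CPM in co-culture. Every co-cultured library lay above every library alone. Its log2 fold change was 1.76 ± 0.17 (SE, n = 3 per group; adjusted p = 1.27e-05) in p53+/+ and 1.90 ± 0.17 (adjusted p = 9.76e-06) in p53-/- NPCs. Col4a2, its partner chain, had 10.8, 9.98 and 9.46 CPM in p53+/+ NPCs alone and 42.7, 37.8 and 32.2 CPM in co-culture. The p53-/- libraries of Col4a2 held 10.5, 9.52 and 7.99 CPM alone and 41.6, 34.3 and 33.3 CPM in co-culture. These groups did not overlap either, and the log2 fold changes were 1.90 ± 0.16 (adjusted p = 2.88e-06) and 1.96 ± 0.16 (adjusted p = 3.48e-06). The ratio of Col4a1 to Col4a2 counts kept a median between 3.28 and 3.88 in the 4 groups, so both chains rose to a like extent. Endothelial cells are known to make type IV collagen, and the part of the endothelial RNA described above in the higher levels of Col4a1 and Col4a2 was not tested.

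Col4a5, far above Col4a1 per length in NPCs alone (57.9 against 4.70 CPM per kb), rose less. Its levels in p53+/+ NPCs were 446, 353 and 368 CPM alone and 578, 516 and 533 CPM in co-culture, a log2 fold change of 0.48 ± 0.13 (adjusted p = 0.0110). Its p53-/- levels were 280, 278 and 234 CPM alone and 397, 392 and 319 CPM in co-culture, again a log2 fold change of 0.48 ± 0.13 (adjusted p = 0.0122). Co-cultured libraries lay above those alone within each genotype. Col4a6 was at 288, 202 and 201 CPM in p53+/+ NPCs alone and 321, 307 and 296 CPM in co-culture (log2 fold change 0.42 ± 0.15, adjusted p = 0.0449). The p53-/- libraries of Col4a6 held 136, 139 and 112 CPM alone and 183, 198 and 153 CPM (0.46 ± 0.16, adjusted p = 0.0333). The increase of Col4a6 was the less secure of this pair. It was not called in 12 of 15 fits that left out a library or an experiment in p53+/+ NPCs (adjusted p up to 0.309, without experiment 25_9), nor in 7 of 15 in p53-/- NPCs (up to 0.183). The increase of Col4a5 was lost in 2 and 3 of these fits, with an adjusted p up to 0.141 and 0.117 without experiment 25_9. These fits had no replicate block. With the block and all libraries, the adjusted p in p53+/+ and p53-/- NPCs was 0.00942 and 0.00723 for Col4a6, and 0.00181 and 0.00224 for Col4a5. Col4a4, a chain of the kidney and eye trimer, was at 0.685 to 1.94 CPM in all 12 libraries and was not called (log2 fold changes -0.52 ± 0.37 and 0.00 ± 0.39).

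**Figure D2:**
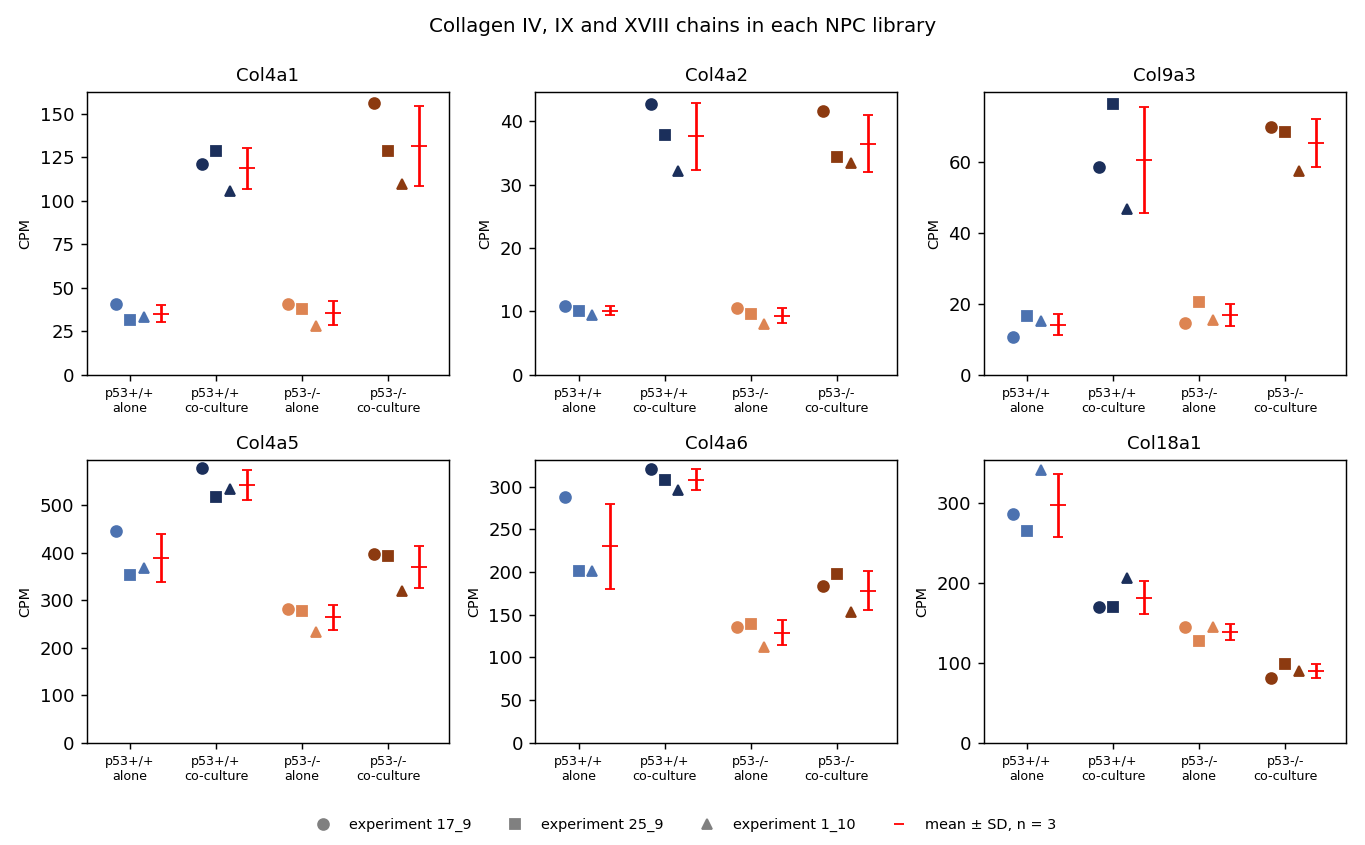
CPM (y axis, from 0) of Col4a1, Col4a2, Col9a3, Col4a5, Col4a6 and Col18a1 in each of the 12 NPC libraries by group (x axis), with a symbol for each experiment and the mean ± SD of 3 libraries in red. Col4a1, Col4a2 and Col9a3 are higher in all co-cultured libraries, Col4a5 and Col4a6 are also lower in p53-/- NPCs, and Col18a1 falls step by step from p53+/+ NPCs alone to p53-/- NPCs in co-culture.

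Type XVIII, the heparan sulfate bearing collagen of basement membranes, went the other way. Col18a1 (chr10:77052178-77166548, GRCm38, minus strand) had 286, 264 and 341 CPM in p53+/+ NPCs alone and 170, 169 and 206 CPM in co-culture. Without p53 it had 144, 127 and 144 CPM alone and 80.7, 98.5 and 89.7 CPM in co-culture. No co-cultured library reached the lowest library alone of its genotype. The log2 fold change was -0.71 ± 0.13 (adjusted p = 0.00109) in p53+/+ and -0.63 ± 0.13 (adjusted p = 0.00305) in p53-/- NPCs. Leaving out experiment 17_9 ended the call in p53-/- NPCs, with a log2 fold change of -0.51 (adjusted p = 0.0593).

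The fibrillar types V and XI, whose chains mix and which set the diameter of fibrils, split by chain. Col5a3 was at 71.6, 46.3 and 52.2 CPM in p53+/+ NPCs alone and 126, 105 and 99.1 CPM in co-culture, and rose by a log2 fold change of 0.95 ± 0.26 (adjusted p = 0.0112). Col5a3 went in p53-/- NPCs from 79.3, 47.3 and 47.2 CPM to 183, 104 and 103 CPM (1.17 ± 0.26, adjusted p = 0.00446). In both genotypes the lowest co-cultured library lay above the highest library alone. Leaving out experiment 25_9 ended the call in p53+/+ NPCs (0.86, adjusted p = 0.110). Col5a1, the chain found in most type V trimers, fell in p53+/+ NPCs, from 134, 83.6 and 103 CPM to 64.0, 52.1 and 74.4 CPM (-0.75 ± 0.25, adjusted p = 0.0322). Its levels in p53-/- NPCs were 132, 70.0 and 66.0 CPM alone and 70.3, 57.3 and 54.3 CPM in co-culture (-0.56 ± 0.25, adjusted p = 0.102; with the replicate block -0.51, adjusted p = 0.0292). The libraries of experiment 17_9 alone, which also held the most mural and contractile marker RNA, were the highest for Col5a1. Without both of them the log2 fold change was -0.56 (adjusted p = 0.0191) in p53+/+ and -0.17 (adjusted p = 0.454) in p53-/- NPCs, and the call in p53+/+ was lost in 6 of 15 fits with a library or experiment left out, up to an adjusted p of 0.124.

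Col5a2, the third chain of type V, was at 128 to 213 CPM in all 12 libraries and was not called (log2 fold changes 0.08 ± 0.19 and 0.10 ± 0.19). Its p53+/+ libraries held 213, 128 and 144 CPM alone and 175, 161 and 179 CPM in co-culture. The p53-/- libraries of Col5a2 held 189, 128 and 131 CPM alone and 172, 141 and 166 CPM in co-culture. In both genotypes Col5a2 thus fell with co-culture in experiment 17_9, whose libraries alone were the highest, and rose in 25_9 and 1_10. The ratio of Col5a3 to Col5a1 counts shifted. In p53+/+ NPCs it was 0.509 to 0.553 alone and 1.33 to 2.01 in co-culture, and in p53-/- NPCs 0.601 to 0.715 alone and 1.81 to 2.60 in co-culture. The ranges of the ratio did not overlap in either genotype. A ratio within a library shows unequal change, not which chain stayed the same.

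Col11a1 and Col11a2, chains of the type XI trimer, differed in level and in response. Col11a1 did not differ with co-culture beyond its spread: it held 194, 156 and 202 CPM in p53+/+ NPCs alone against 172, 166 and 230 CPM in co-culture, and 136, 145 and 178 CPM against 135, 140 and 174 CPM in p53-/- NPCs. These groups overlapped, and the log2 fold changes were 0.04 ± 0.16 and -0.03 ± 0.16. Col11a2 rose. In p53+/+ NPCs it was at 0.937, 1.09 and 0.356 CPM alone and 5.61, 7.24 and 3.95 CPM in co-culture, a log2 fold change of 2.81 ± 0.45 (adjusted p = 0.000456). The p53-/- libraries held 1.07, 1.73 and 0.499 CPM alone and 4.41, 6.13 and 3.63 CPM in co-culture, a log2 fold change of 2.08 ± 0.43 (adjusted p = 0.00301). All 6 co-cultured libraries lay above all 6 libraries alone. Per length Col11a2 remained low in p53+/+ co-culture, at 0.815 ± 0.239 CPM per kb against 14.9 ± 2.80 CPM per kb of Col11a1.

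The other tested fibrillar chains were Col27a1, a cartilage collagen, and those of type I. Col27a1 was at 5.25, 5.96 and 4.73 CPM in p53+/+ NPCs alone and 10.4, 9.78 and 7.75 CPM in co-culture (log2 fold change 0.81 ± 0.29, adjusted p = 0.0416), and this call was lost in 10 of 15 fits with a library or experiment left out (adjusted p up to 0.202, without experiment 25_9). Those fits had no replicate block, and with the block and all libraries it was 0.79 (adjusted p = 0.00429). Col27a1 was not called in p53-/- NPCs (0.62 ± 0.28, adjusted p = 0.108), but was with the replicate block (0.64, adjusted p = 0.0128) or without both libraries of experiment 17_9 cultured alone (0.92, adjusted p = 0.0277). Col1a2 had at most 0.437 CPM in p53+/+ NPCs alone and 0.364 to 0.948 CPM in co-culture (1.10 ± 0.79, adjusted p = 0.286). The p53-/- libraries of Col1a2 held 1.45, 0.319 and 0.333 CPM alone and 3.51, 0.753 and 1.19 CPM in co-culture, and it was not called (1.36 ± 0.64, adjusted p = 0.115). Col1a2 was called there with the replicate block (1.34, adjusted p = 0.0125) and without both libraries of experiment 17_9 cultured alone (2.46, adjusted p = 0.0196). Col1a1 did not differ beyond its spread (0.35 ± 0.39 and -0.05 ± 0.36).

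**Figure D3:**
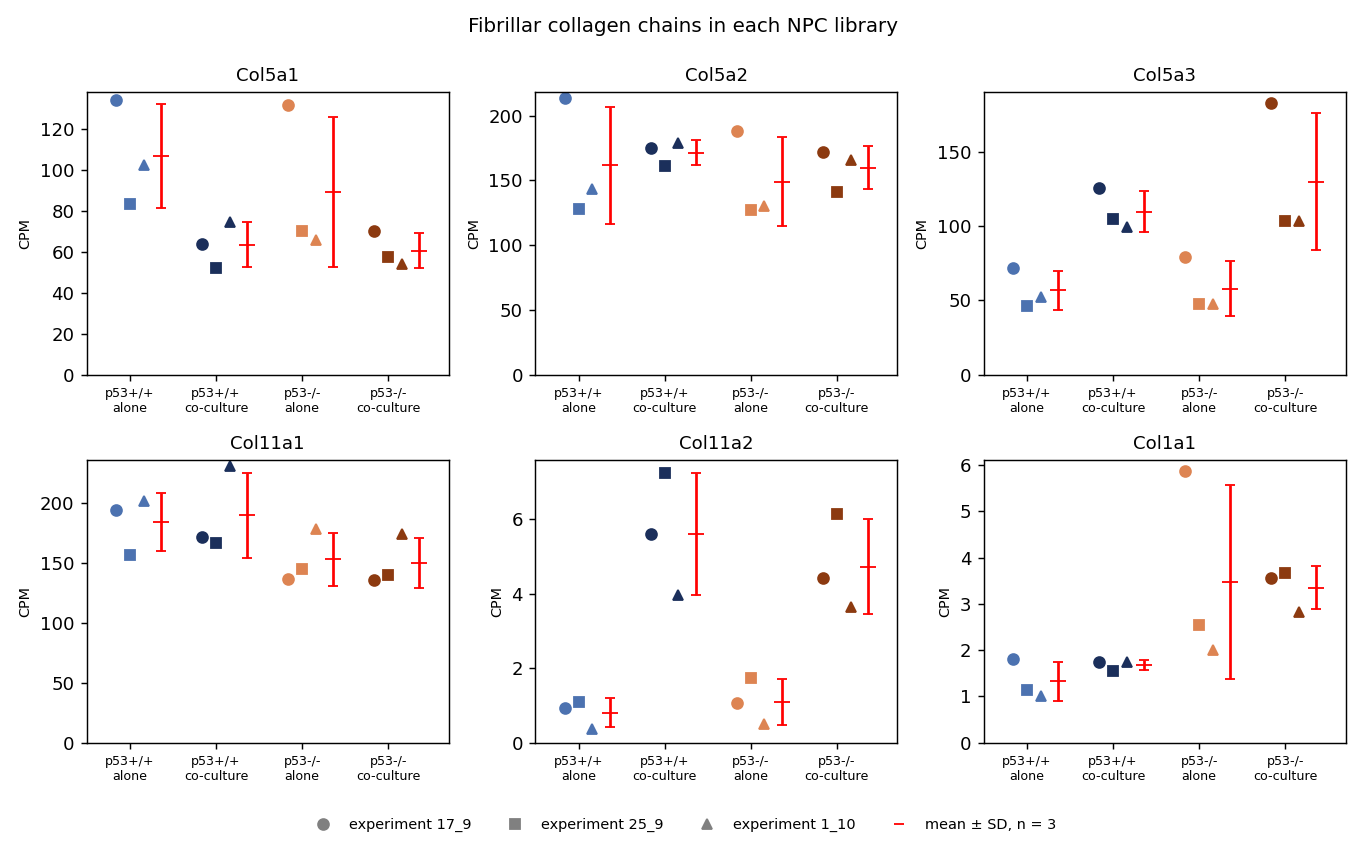
CPM (y axis, from 0) of the fibrillar chains Col5a1, Col5a2, Col5a3, Col11a1, Col11a2 and Col1a1 in each NPC library by group (x axis), with a symbol per experiment and the mean ± SD of 3 libraries in red. Col5a3 and Col11a2 are higher in co-culture in both genotypes, Col5a2 and Col11a1 stay within one range, and the circles of experiment 17_9 alone are the highest points of Col5a1.

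Among FACIT collagens, which sit on the surface of other fibrils, 2 of the 3 type IX chains rose. Col9a3 (chr2:180597790-180622189, GRCm38, plus strand) was at 10.7, 16.5 and 15.2 CPM in p53+/+ NPCs alone and 58.6, 76.5 and 46.9 CPM in co-culture (log2 fold change 2.10 ± 0.21, adjusted p = 1.38e-05). Its levels in p53-/- NPCs were 14.6, 20.5 and 15.4 CPM alone and 70.0, 68.6 and 57.5 CPM in co-culture (1.95 ± 0.21, adjusted p = 3.19e-05). The lowest co-cultured library, with 46.9 CPM, was far above the highest alone. Col9a2 was at 0.312, 0.646 and 0.865 CPM in p53+/+ NPCs alone and 0.981, 2.50 and 1.53 CPM in co-culture (1.44 ± 0.46, adjusted p = 0.0260). Without p53 it was at 0.388, 1.05 and 0.444 CPM alone and 1.85, 2.26 and 1.79 CPM in co-culture (1.62 ± 0.45, adjusted p = 0.0147). Without both libraries of experiment 17_9 cultured alone, Col9a2 was not called in p53+/+ NPCs (1.15, adjusted p = 0.0618). The groups of Col9a2 did not overlap, yet its calls were lost in 5 of 15 fits (p53+/+, adjusted p up to 0.220) and in 4 of 15 fits (p53-/-, up to 0.0827) with a library or experiment left out. Col9a1, the chain that completes the trimer, was at 0.356 to 1.23 CPM in all libraries and was not called (0.55 ± 0.43 and 0.21 ± 0.44).

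Col12a1, a FACIT chain of tendon and of tissue under load, fell in p53+/+ NPCs. It was at 119, 46.6 and 62.9 CPM alone and 21.5, 25.3 and 34.4 CPM in co-culture, without overlap (log2 fold change -1.49 ± 0.31, adjusted p = 0.00235). In p53-/- NPCs it was at 67.9, 43.7 and 38.3 CPM alone and 41.6, 39.2 and 37.0 CPM in co-culture, where the groups overlapped (-0.35 ± 0.30, adjusted p = 0.394). Without both libraries of experiment 17_9 cultured alone, the log2 fold change was -1.02 (adjusted p = 0.00150) in p53+/+ and -0.07 (adjusted p = 0.806) in p53-/- NPCs. Col16a1, a FACIT chain that binds integrins, rose in p53+/+ NPCs, from 29.6, 50.6 and 52.1 CPM to 61.5, 79.6 and 64.4 CPM (0.63 ± 0.21, adjusted p = 0.0287). That call was lost without both libraries of experiment 17_9 cultured alone (0.41, adjusted p = 0.0607) and in 6 of 15 fits with a library or experiment left out (up to an adjusted p of 0.125). Col16a1 in p53-/- NPCs was at 57.9, 84.6 and 64.4 CPM alone and 70.1, 85.6 and 68.8 CPM in co-culture (0.12 ± 0.21). Col20a1 was called in neither genotype (1.15 ± 0.45, adjusted p = 0.0604, and 0.95 ± 0.40, adjusted p = 0.0805) but in both with the replicate block (adjusted p = 0.0361 and 0.0327). Col22a1, a chain of tissue junctions, was not called (-0.60 ± 0.56 and -0.82 ± 0.58).

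Type VI collagen, which forms beaded filaments around cells, was represented by Col6a1 and Col6a2. Col6a1 had 7.81, 4.57 and 4.63 CPM in p53+/+ NPCs alone and 19.6, 17.4 and 14.9 CPM in co-culture (log2 fold change 1.61 ± 0.32, adjusted p = 0.00176). Without p53 it had 7.12, 4.51 and 2.66 CPM alone and 13.5, 13.7 and 8.78 CPM in co-culture (1.33 ± 0.32, adjusted p = 0.00689). Its groups did not overlap, but leaving out experiment 25_9 ended both calls (1.47, adjusted p = 0.0620, and 1.18, adjusted p = 0.109). Col6a2 was at 0.312, 0.447 and 0.153 CPM in p53+/+ NPCs alone and 1.58, 3.00 and 1.53 CPM in co-culture (2.73 ± 0.59, adjusted p = 0.00299). For Col6a2 the p53-/- library of experiment 17_9 alone held 1.45 CPM, against 0.455 and 0.333 CPM in the others alone and 2.35, 2.16 and 1.14 CPM in co-culture. Its increase there was not called (1.32 ± 0.52, adjusted p = 0.0631), and was with the replicate block (1.35, adjusted p = 0.0160) or without both libraries of experiment 17_9 cultured alone (2.22, adjusted p = 0.00837). The third classic chain of type VI, Col6a3, had at most 15 counts in any library and was not tested.

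Transmembrane collagens carry a short tail in the cell and a collagenous part outside. Col23a1 was at 4.37, 3.67 and 3.25 CPM in p53+/+ NPCs alone and 20.1, 17.2 and 15.6 CPM in co-culture (log2 fold change 2.23 ± 0.31, adjusted p = 0.000168). Its levels in p53-/- NPCs were 3.83, 5.06 and 3.11 CPM alone and 24.9, 12.1 and 10.2 CPM in co-culture (1.97 ± 0.31, adjusted p = 0.000517). All co-cultured libraries lay above all libraries alone. Col25a1, the precursor of a component of amyloid plaques, was at most at 1.35 CPM and was not called here (0.15 ± 0.64 and 0.90 ± 0.46). Col26a1, also known as Emid2, was at 6.94, 7.25 and 7.22 CPM in p53+/+ NPCs alone and 12.6, 15.8 and 13.6 CPM in co-culture (0.97 ± 0.22, adjusted p = 0.00362). Col26a1 in p53-/- NPCs went from 4.55, 8.15 and 5.71 CPM to 10.9, 13.6 and 9.16 CPM (0.87 ± 0.22, adjusted p = 0.00859), a call lost without experiment 17_9 (0.73, adjusted p = 0.0730). Col7a1, the anchoring fibril chain of skin, was at 1.02 to 2.76 CPM in all libraries and was not called (0.13 ± 0.32 and 0.43 ± 0.31).

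Type VIII, a short-chain network collagen made by vessel walls and eye, showed the widest spread between replicates. Col8a1 was at 21.6, 3.38 and 2.29 CPM in p53+/+ NPCs alone and 2.83, 1.91 and 2.53 CPM in co-culture. In p53-/- NPCs it was at 28.0, 2.23 and 1.33 CPM alone and 1.90, 1.66 and 2.33 CPM in co-culture. The high values were those of experiment 17_9 alone, the libraries with 847 and 1304 CPM of mural and contractile markers, and the part of those cells or of that program in Col8a1 was not tested. The difference was not called (-1.90 ± 1.01, adjusted p = 0.153, and -2.42 ± 1.03, adjusted p = 0.0824). Without both libraries it was -0.23 in p53+/+ (adjusted p = 0.565) and 0.12 in p53-/- NPCs (adjusted p = 0.799), so the sign in p53-/- NPCs rested on that experiment. Col8a2, the other chain, was at 0.108 to 0.875 CPM and was not called (-0.63 ± 0.62 and -1.04 ± 0.74).

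**Figure D4:**
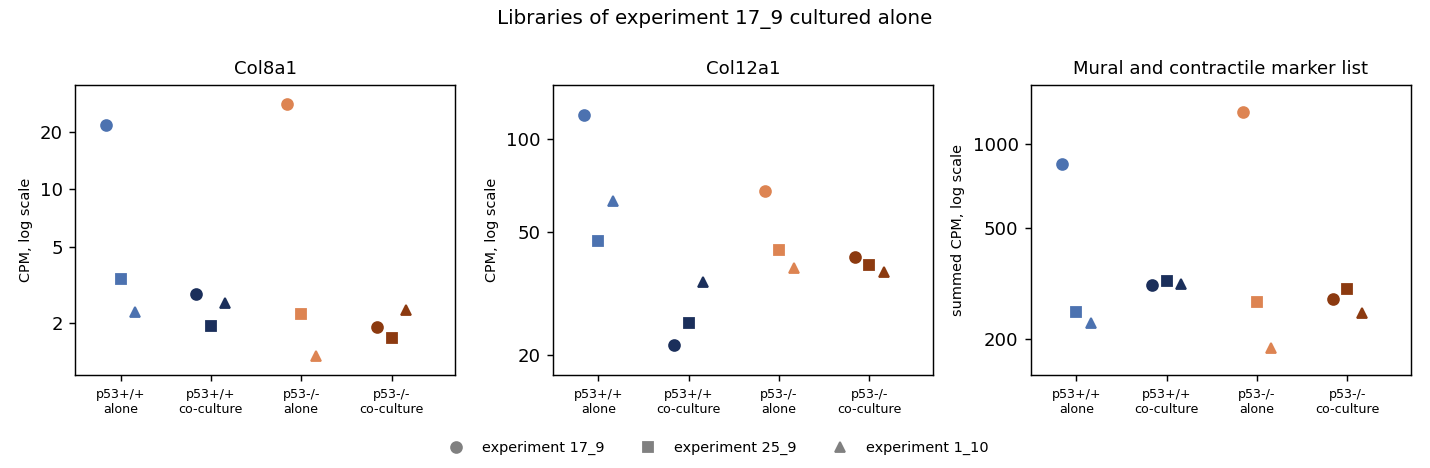
CPM of Col8a1 and of Col12a1 and summed CPM of the mural and contractile marker list (y axes, log scale) in each NPC library by group (x axis), with a symbol per experiment. The circles of experiment 17_9 cultured alone are the highest points of all 3 panels, at 21.6 and 28.0 CPM of Col8a1.

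Loss of p53 was compared within each culture. Fewer collagen genes differed: 1 of 29 was higher and 3 lower in p53-/- NPCs alone, where 2.02% of all tested genes were higher and 4.27% lower. The co-cultured NPCs gave 1 higher and 3 lower collagens, against 3.24% and 4.93% of all tested genes. The median log2 fold change of the 29 was 0.01 alone and -0.10 in co-culture, beside 0.05 and 0.02 over all genes. The replicate block called 2 higher and 3 lower alone, against 7.25% and 9.33% of all genes. It called 3 higher and 4 lower in co-culture, against 9.99% and 10.9%. Col18a1, Col4a5 and Col4a6, all basement membrane chains, were the 3 lower genes in both cultures. Both comparisons of p53 loss used different libraries, while each shared its libraries with the co-culture comparisons above.

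Col18a1 differed most securely. From the libraries given above, 264 to 341 CPM in p53+/+ against 127 to 144 CPM in p53-/- NPCs alone, and 169 to 206 CPM against 80.7 to 98.5 CPM in co-culture, its groups were far apart. Its log2 fold change alone was -1.10 ± 0.13 (adjusted p = 0.000302), and that in co-culture was -1.02 ± 0.13 (adjusted p = 0.000783). It was called in all 15 fits with a library or experiment left out, in both cultures. With 80.7 to 98.5 CPM, Col18a1 was lowest in co-cultured p53-/- NPCs, the group with both changes.

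Col4a6 had 201 to 288 CPM in p53+/+ and 112 to 139 CPM in p53-/- NPCs alone, and 296 to 321 against 153 to 198 CPM in co-culture. Its log2 fold change alone was -0.84 ± 0.15 (adjusted p = 0.00732), and that in co-culture was -0.79 ± 0.16 (adjusted p = 0.00897). Col4a5 had 353 to 446 CPM against 234 to 280 CPM alone and 516 to 578 CPM against 319 to 397 CPM in co-culture, with log2 fold changes of -0.56 ± 0.13 (adjusted p = 0.0248) and -0.56 ± 0.13 (adjusted p = 0.0216). None of these groups overlapped. The calls of Col4a6 were lost in 2 of 15 fits in each culture (adjusted p up to 0.0949 and 0.182, both without experiment 25_9), and those of Col4a5 in 5 and 7 of 15 (up to 0.187 and 0.268, also without experiment 25_9). Those fits had no replicate block. With the block and all libraries, the adjusted p alone and in co-culture was 0.000813 and 0.000884 for Col4a6, and 0.00372 and 0.00274 for Col4a5. Without both libraries of experiment 17_9 cultured alone, the difference alone was -0.49 (adjusted p = 0.106) for Col4a5 and -0.68 (adjusted p = 0.0309) for Col4a6. The ratio of Col4a5 to Col4a6 counts was 1.55 to 1.82 over the p53+/+ libraries and 1.98 to 2.17 over the p53-/- libraries, so within this pair the Col4a6 chain was the lower relative to its partner. Col4a1 and Col4a2, in contrast, had log2 fold changes of 0.01 ± 0.17 and -0.11 ± 0.16 alone and of 0.15 ± 0.17 and -0.04 ± 0.15 in co-culture, none of them called.

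**Figure D5:**
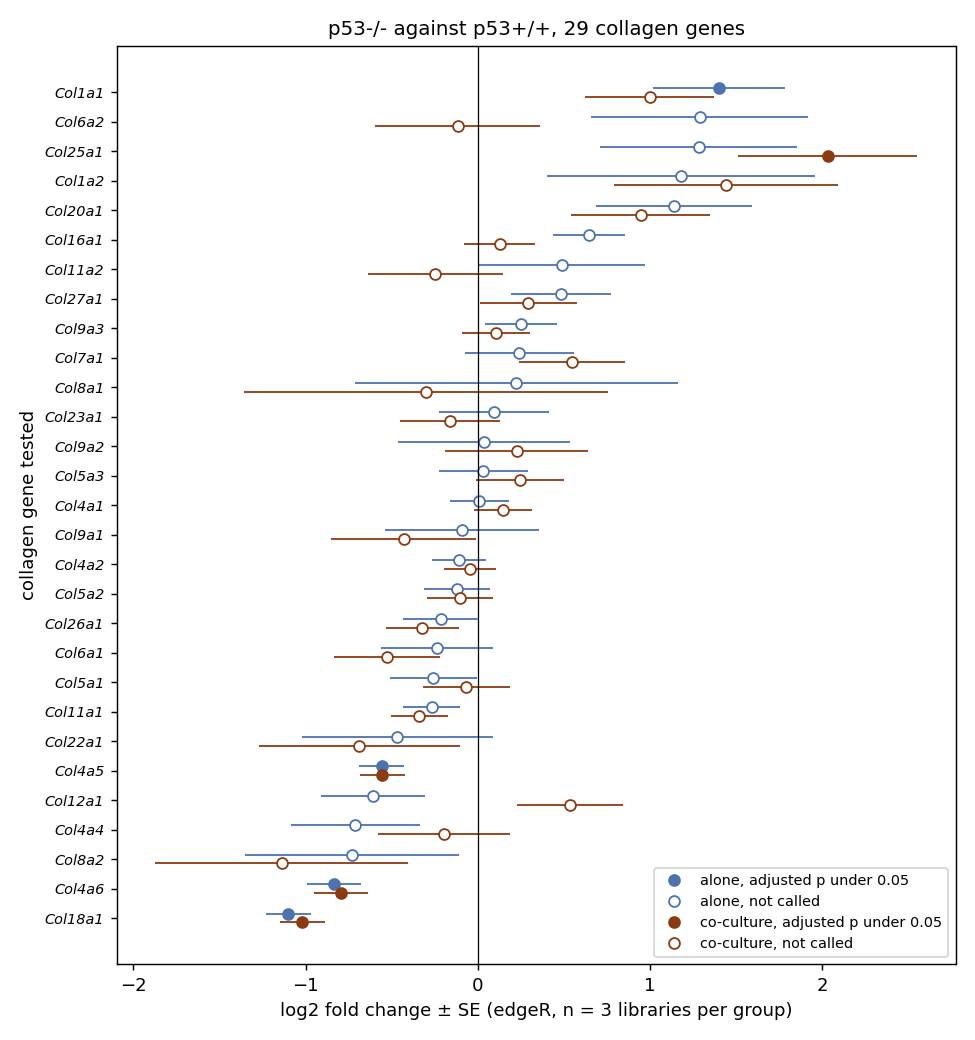
Log2 fold change (x axis, with its SE from edgeR) of each of the 29 tested collagen genes (y axis) in p53-/- against p53+/+ NPCs, alone (blue) and in co-culture (brown), 3 libraries per group. Filled points are called: Col18a1, Col4a6 and Col4a5 lie left of 0 in both cultures, Col1a1 right of 0 alone and Col25a1 right of 0 in co-culture.

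The higher genes were scarce ones. Col1a1 was at 1.81, 1.14 and 1.02 CPM in p53+/+ and 5.86, 2.55 and 2.00 CPM in p53-/- NPCs alone (log2 fold change 1.40 ± 0.38, adjusted p = 0.0471). Co-cultured NPCs held 1.74, 1.55 and 1.74 CPM against 3.56, 3.67 and 2.82 CPM (1.00 ± 0.37, adjusted p = 0.118; with the replicate block 0.99, adjusted p = 0.0293; without both libraries of experiment 17_9 cultured alone 1.00, adjusted p = 0.0142). The p53-/- libraries lay above the p53+/+ libraries in both cultures, yet the call alone was lost in 14 of 15 fits with a library or experiment left out, up to an adjusted p of 0.282. Those fits had no replicate block, and with the block and all libraries the difference alone was 1.34 (adjusted p = 0.0107). Without both libraries of experiment 17_9 cultured alone, the difference alone was 1.08 (adjusted p = 0.0769). Col25a1 was at 0.218, 0.137 and 0.316 CPM in p53+/+ and 1.35, 0.703 and 0.705 CPM in p53-/- NPCs in co-culture (2.03 ± 0.52, adjusted p = 0.0308), without overlap. That call was lost in 8 of 15 such fits, up to an adjusted p of 0.289. With the block and all libraries, the difference of Col25a1 in co-culture was 2.00 (adjusted p = 0.00892). The replicate block added Col16a1 to the higher genes alone (0.65, adjusted p = 0.00877). In co-culture it added Col1a2 to the higher (1.27, adjusted p = 0.0373) and Col11a1 to the lower genes (-0.33, adjusted p = 0.0356).

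Whether co-culture acted differently on collagens in p53-/- than in p53+/+ NPCs was tested as an interaction. No collagen gene was called by edgeR, with or without the replicate block, or by DESeq2, where edgeR called 0.0364% of all tested genes without the block and 0.0800% with it. The lowest adjusted p among collagens was 0.684, and only Col12a1 had an unadjusted p under 0.05, with an interaction of 1.14 ± 0.43 on the log2 scale. Of the other genes called in p53+/+ but not in p53-/- co-culture, Col6a2 had an interaction of -1.41 ± 0.79 and Col16a1 of -0.52 ± 0.29, with adjusted p of 0.751 and 0.752. The genes called in one genotype alone were thus not shown to differ between genotypes.

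The enzymes and partners of collagens were read from lists of genes, whose counts stand beside the shares of all tested genes in the same comparison and were not tested as sets. In p53+/+ co-culture 21.2% of all tested genes rose and 18.3% fell, and in p53-/- co-culture 18.8% rose and 17.0% fell. Without p53, 2.02% of them were higher and 4.27% were lower in NPCs alone, and 3.24% were higher and 4.93% were lower in co-cultured NPCs. With the replicate block these shares were 26.2% and 24.1% (p53+/+ co-culture), 24.3% and 23.2% (p53-/- co-culture), 7.25% and 9.33% (p53 loss, alone) and 9.99% and 10.9% (p53 loss, co-culture). Of 22 tested genes for hydroxylation, folding and secretion, 9 rose and 4 fell in p53+/+ co-culture, and 5 rose and 5 fell in p53-/- co-culture. With the block it was 10 and 6, and 6 and 7, in the same order. Those that rose in both included Colgalt2, a collagen galactosyltransferase (log2 fold changes 1.78 and 1.59), the lysyl hydroxylase Plod1 (0.95 and 0.98) and the endoplasmic reticulum prolyl isomerase Fkbp10 (0.99 and 0.73). Those that fell in both included Plod2, the lysyl hydroxylase of telopeptides (-1.02 and -0.81), and the collagen chaperone Serpinh1 (-0.39 and -0.68). Without p53, alone, Serpinh1 (0.55) and the prolyl hydroxylase subunit P4ha2 (1.11) were higher, but were not called without both libraries of experiment 17_9 cultured alone (0.41, adjusted p = 0.101, and 1.00, adjusted p = 0.145). Creb3l1, a transcription factor of the secretory pathway that acts on collagen genes, was lower alone (-1.54) and in co-culture (-1.38). The replicate block called 5 of the 22 lower with p53 loss in co-culture, against 1 without it, where 10.9% and 4.93% of all genes were lower.

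Of 17 tested genes for procollagen processing and cross-linking, 7 rose and 3 fell in p53+/+ co-culture (all genes 21.2% and 18.3%) and 6 rose and 3 fell in p53-/- co-culture (all genes 18.8% and 17.0%). The block gave 7 and 5, and 6 and 5. Loxl4, a lysyl oxidase, rose by 3.20 and 3.14 on the log2 scale, from a mean of 0.443 to 4.06 CPM in p53+/+ NPCs. Bmp1, the protease that cuts the C-propeptide, rose by 0.74 and 0.80, and Bgn, a small proteoglycan that binds fibrils, by 3.50 and 2.69. The N-propeptide proteases Adamts3 (-1.39 and -1.56) and Adamts14 (-1.03 and -0.80) fell, as did Pcolce, which speeds up Bmp1 (-0.80 and -0.80). Among NPCs alone, p53 loss left 2 of these genes higher and 1 lower. Among co-cultured NPCs it left 1 higher and none lower, or 3 higher and 3 lower with the replicate block.

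Among 14 tested collagen receptors, 4 rose and 6 fell in p53+/+ co-culture (all genes 21.2% and 18.3%), and 3 rose and none fell in p53-/- co-culture (all genes 18.8% and 17.0%). With the block these became 5 and 6, and 5 and 1. Itgb3, an integrin β chain (2.26 and 1.97), and Lair1, an inhibitory collagen receptor (1.59 and 1.46), rose in both. Mrc2, a receptor for collagen uptake, and Ddr2, a tyrosine kinase receptor for fibrillar collagen, fell in p53+/+ co-culture by 0.83 and 0.54, the latter not called without both libraries of experiment 17_9 cultured alone (-0.42, adjusted p = 0.0652). With p53 loss Mrc2 was higher alone (0.84) and in co-culture (1.20). Itga1, the integrin chain that binds type IV collagen, was lower alone (-1.34), and Ddr1, a collagen receptor tyrosine kinase of epithelium, was lower in co-culture (-0.56). Without both libraries of experiment 17_9 cultured alone, neither Mrc2 (0.72, adjusted p = 0.149) nor Itga1 (-0.77, adjusted p = 0.105) was called alone. Of the receptors, 2 were lower without p53 in NPCs alone and 1 in co-cultured NPCs, which became 4 and 2 with the replicate block. Higher receptors numbered 1 in each culture, and 1 and 2 with the block.

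Of 22 tested basement membrane partners of collagen IV, 4 rose and 6 fell in p53+/+ co-culture (all genes 21.2% and 18.3%) and 3 rose and 3 fell in p53-/- co-culture (all genes 18.8% and 17.0%). With the block 7 rose and 7 fell, and 6 rose and 4 fell. The proteoglycan Agrn rose (0.93 and 1.00). The laminin chain Lama1 (-1.58 and -1.39) fell in both genotypes, and Lamb1 (-0.84) and Lamc1 (-1.12) fell in p53+/+ co-culture. Lamb1 in p53-/- co-culture was at -0.49 (adjusted p = 0.0486), and 17 of 26 alternatives did not call it, with a log2 fold change of -0.24 (adjusted p = 0.221) without both libraries of experiment 17_9 cultured alone. Nid1, which links laminin to type IV collagen, rose in p53+/+ co-culture (0.71, adjusted p = 0.0414), and 9 of 26 alternatives did not call it (adjusted p up to 0.152). With p53 loss alone 1 of the 22 was higher and 1 lower, but 9 were lower with the replicate block (9.33% of all genes), and in co-culture none was called without the block and 1 in each direction with it. Of 20 tested regulators of collagen transcription, 3 rose and 8 fell in p53+/+ co-culture (all genes 21.2% and 18.3%) and 2 rose and 3 fell in p53-/- co-culture (all genes 18.8% and 17.0%). Tgfb1 rose in both (1.26 and 1.05), Sox9, which drives type II, IX and XI genes in cartilage, rose in p53+/+ co-culture (0.94), and Skil, an inhibitor of TGFβ signaling, fell in both (-1.06 and -0.63). With p53 loss none of these 20 was called alone and 3 were higher in co-culture, among them Skil (0.60). With the replicate block 5 regulators rose and 9 fell in p53+/+ co-culture, and 3 rose and 7 fell in p53-/- co-culture, where 23.2% of all genes fell. With p53 loss the block gave 1 in each direction alone and 5 higher and 1 lower in co-culture. The listed regulators summed to 2643 CPM (p53+/+) and 2192 CPM (p53-/-) in the libraries of experiment 17_9 cultured alone, against 1085 to 1495 CPM in the others. Counts of called regulators without that pair are not given.

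Marker lists of other cell types were read beside these results, and their counts were not tested as sets. For scale, 21.2% of all tested genes rose with p53+/+ co-culture while 18.3% fell, and 18.8% rose with p53-/- co-culture while 17.0% fell. The matching shares for p53 loss were 2.02% up with 4.27% down in NPCs alone, then 3.24% up with 4.93% down on bmvECs. Shares with the block stand beside the enzyme lists above. A count near these shares does not show whether a cell type shifted. Of 16 tested type-B and astroglial markers, 10 rose and 1 fell in p53+/+ and 9 rose and 2 fell in p53-/- co-culture, and their summed level went from 10484 to 11812 CPM alone to 23925 to 32807 CPM in p53+/+ co-culture. Gfap, the astroglial intermediate filament, averaged 556 CPM alone and 13077 CPM in p53+/+ co-culture. Sox2, a factor of neural stem cells, averaged 158 to 231 CPM in the 4 groups. Of 9 tested mural markers 4 rose in each genotype, among them the pericyte genes Rgs5 (2.44 and 1.66) and Pdgfrb (1.62 and 1.42). Acta2 fell in both (-3.37 and -3.56) and Tagln in p53-/- co-culture (-2.50). The summed level of this list was 847 and 1304 CPM in the libraries of experiment 17_9 cultured alone, against 185 to 324 CPM in all others. Values of Acta2 and Tagln without that pair are not given, so their falls are not shown to hold outside it. Rgs5 stayed near 0, at a mean of 0.179 CPM alone and 1.00 CPM in p53+/+ co-culture. Of 10 tested fibroblast and meningeal markers 3 rose and 3 fell in p53+/+ and 2 rose and 2 fell in p53-/- co-culture. Oligodendrocyte lineage markers were split, with 4 of 10 higher and 3 lower, and 2 higher and 3 lower, in the respective genotypes. Neuroblast markers were split too, with 2 of 9 higher and 3 lower, and 1 higher and 1 lower. Summed over the 10 listed, tested or not, they were at 268 to 337 CPM in p53+/+ NPCs alone and 181 to 219 CPM in co-culture. In p53-/- NPCs these sums were 292 to 368 CPM alone and 208 to 212 CPM in co-culture. Of 2 tested microglia markers P2ry12 rose in both genotypes (2.02 and 1.22). With p53 loss no endothelial or microglia marker was called in either culture without the replicate block, and with it 1 endothelial marker was lower in each culture. Type-B and astroglial markers lower with p53 loss numbered 1 in each culture, and 5 in each with the block. Fbln1, a matrix protein on the fibroblast list, was higher without p53 alone (0.90) and in co-culture (1.26), and of the mural list Pdgfrb (1.16) and Mcam (0.59) were higher and Notch3 (-0.94) lower alone. Pdgfra, of the oligodendrocyte lineage, was higher in both (1.50 and 2.04), as was the neuroblast gene Dcx (1.91 and 3.03), while the astroglial Gja1 was lower in both (-0.84 and -0.96). The block moved other marker counts as well. In co-culture it gave 6 mural markers that rose and 2 that fell in p53+/+ and 5 and 2 in p53-/- NPCs, 12 and 2 type-B and astroglial markers in p53+/+ NPCs, and 3 and 1 neuroblast markers, 3 and 3 oligodendrocyte lineage markers, 3 and 3 fibroblast and meningeal markers and 18 and 1 endothelial markers in p53-/- NPCs. With p53 loss it gave, as higher and lower, 3 and 3 neuroblast, 3 and 1 oligodendrocyte lineage and 1 and 1 fibroblast and meningeal markers alone, and 2 and 2 mural and 3 and 1 neuroblast markers in co-culture. The part of any of these cell types in the collagen levels was not tested.

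Promoter sequence was held for 35 of the 44 collagen genes, as 38 RefSeq windows of the 250 bases before the start. A GC box (GGGCGG, either strand) was found in 22 of the 38 windows (57.9%), against 32.7% of 32851 windows of all genes. A CCAAT box was in 13 (34.2%, against 33.8%), TATAAA in 5 (13.2%, against 12.4%) and the AP-1 motif TGANTCA in 1 (2.63%, against 6.75%), that of Col6a1. The p53 half-site motif was in 3 windows (7.89%, against 7.13%), those of Col20a1, Col6a6 and Col9a2. A match of letters is no measure of binding.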

How the data were processed

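RNA of 12 NPC libraries (stranded mRNA kit, paired reads of 100 bases) was aligned by the authors to mm9 with TopHat2 2.0.11 and counted per gene with HTSeq 0.6.1, per the study's methods and the submitters' processing notes. The deposited values are raw counts per gene. No source used here gives the strand setting or annotation version, so counts of overlapping or antisense genes are uncertain.

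Counts were filtered with filterByExpr of edgeR 4.0.16 (R 4.3.3), which kept 13745 of 24108 genes, and scaled by TMM. All 12 libraries entered a single quasi-likelihood fit, with a mean for each of the 4 groups and shared dispersions. Co-culture was tested in each genotype, p53 loss in each culture, and the interaction, each adjusted by Benjamini-Hochberg over all tested genes with a threshold of 0.05. The SE of a fold change was its size divided by the square root of its F statistic. The fit was tested on simulated data. DESeq2 1.42.0, other scalings, filters and thresholds, and fits with a library or experiment left out were alternatives, and leaving out both libraries of experiment 17_9 cultured alone was added after seeing the data. No fit with a library or experiment left out had the replicate block.

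The experiment numbers mark paired samples, per the key of the study's sample sheet. Deviations from group means correlated at r = 0.0844 to 0.655 in 18 same-numbered pairs and -0.672 to 0.325 in 36 others. The fit with the experiment as a replicate block is given where it changed the call of a collagen gene or the counts of a gene list. Nothing tells whether experiments used separate animals, and p-values measure the spread between these libraries. No library was a copy of another: replicates differed by 10.7 to 48.8 times the variance of counting noise in 12 pairs.

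Exonic lengths came from GENCODE vM21 and promoter windows from RefSeq, both of GRCm38, which is not the build of the counts. Outside the 22 bases that Col4a1 and Col4a2 share, no base annotated as exon was printed. The members and all gene lists were chosen with earlier results of these data known. Every collagen gene was open to naming. Values per library were given for the 8 largest called changes of a comparison and for partner chains of types I, IV, V, VI, VIII, IX and XI, and from each list up to 4 called genes per direction were open to naming, by adjusted p.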

Additional observations from a re-analysis of the deposited data

How the results depend on the processing

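The counts of collagen genes that rose or fell depended on the settings as follows. The number of collagen genes tested ran from 21, with a minimum of 10 counts in every library, to 44 without a filter. Shares of all tested genes are given only for the main fit and the edgeR fit with the replicate block. A changed count under another setting is therefore not shown to be particular to collagens. Over 58 results on single collagen genes and 1482 values of them under other settings, 1316 kept their direction and side of the threshold, 122 lost the call, 41 gained it and 3 changed sign. The cause of a change was not tested where none is named. In p53+/+ co-culture 8 genes rose, in place of 14, at a threshold of 0.01, and leaving out a library or an experiment gave 7 to 14 that rose and 2 to 4 that fell. In p53-/- co-culture the replicate block gave 15 that rose and 2 that fell in edgeR, and 2 fell with the block in DESeq2. Leaving out a library or experiment gave 8 to 13 that rose and 0 to 3 that fell.

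With p53 loss alone, 0 genes were higher with DESeq2's size factors or upper-quartile scaling in edgeR, in a fit of only the groups compared, at a threshold of 0.01 and without both libraries of experiment 17_9 cultured alone. DESeq2 gave 2, as did both tools with the replicate block. Leaving out a library or experiment gave 0 to 1 higher and 1 to 3 lower. In co-culture, 3 were higher with the block in edgeR, 2 with the block in DESeq2, in a fit of only the groups compared and without both libraries of experiment 17_9, and 0 with a minimum of 10 counts in every library or a threshold of 0.01. The block in DESeq2 gave 5 lower. Leaving out a library or experiment gave 0 to 2 higher and 1 to 3 lower. The interaction gave 0 genes in the settings run for it, which did not include a fit of only the groups compared.

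The log2 fold change of Col8a1 in p53-/- co-culture ran from -3.05 to 0.16 with a library or experiment left out, and changed sign, to a log2 fold change of 0.12 without the p53-/- library of experiment 17_9 cultured alone, 0.16 without experiment 17_9 and 0.12 without both of its libraries cultured alone. Beyond the calls given beside each gene, the replicate block changed no call of a collagen gene. In all 15 fits with a library or experiment left out, 9 of 17 calls were kept in p53+/+ co-culture, 6 of 12 in p53-/- co-culture, and 1 of 4 with p53 loss in each culture. These fits left the pairing of the experiments out of the model. The share of all called genes kept in them is not given, so the losses are not shown to be particular to collagens. Genes under about 2 CPM, such as Col1a2, Col6a2, Col9a2 and Col25a1, rested on few counts. With 3 libraries per group, a difference that was not called is not shown to be absent.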
